A study of Mus musculus with 16 samples.

Results

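Enzymes of the tricarboxylic acid (TCA) cycle were followed through 9 genes, Cs, Idh3a, Idh2, Idh1, Ogdh, Suclg1, Fh1, Mdh1 and Mdh2, among the 22328 genes named on the arrays. They were taken as the array rows, controls left out, whose gene name is one of these symbols. These rows held 12 probes, 3 for Ogdh, 2 for Fh1 and 1 for each other gene, and the brightest probe stood for its gene. The samples were mouse T lymphocytes from lymph node, labelled OT-1het and Rag-/- in every group, so that all extracts shared the Rag deletion and the OT-1 transgene, a receptor that recognises SIINFEKL, a peptide of ovalbumin. The 4 WT extracts carried no further named allele, and the 4 Lck-/- extracts also lacked Lck, the kinase that starts signalling at that receptor. The series title adds OFF to the Lck-/- group, a word whose meaning is not given in the sources used here, as are the age of the animals and the number of animals behind an extract. Both genotypes were cultured with 100 nM SIINFEKL for 24 h and with 100 µg/ml cycloheximide for 10 min before harvest, which keeps ribosomes on their mRNAs. Gradients of 10 to 50% sucrose gave fractions 1 to 5, pooled as sub-polysomal RNA, and fractions 6 to 10, pooled as polysomal RNA. Both pools of an extract were set against each other on 2 arrays with the dyes swapped, 16 arrays on 2 slides.

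The TCA cycle runs in mitochondria, where acetyl groups from pyruvate, fatty acids or glutamine are oxidised and the electrons pass to the respiratory chain. Its intermediates also leave as building blocks, citrate for lipids and oxaloacetate for aspartate and nucleotides. T cells that meet antigen raise their metabolism and draw on both uses. All 9 genes lie in the nucleus, and their mRNAs are translated on cytosolic ribosomes, which a sucrose gradient separates by the number of ribosomes per mRNA.

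Each value below rests on 1 probe of 60 bases, so the probes that decide a result are shown, with positions on the build mm9 as the deposited files give them. Whether a probe lies in an exon's coding part or its UTR was not taken from an annotation, because none of that build was used here. The probe of Suclg1, the gene that differed in level, has 1 forward reading frame without a stop codon and is given whole (chr6:73221044-73221103, plus strand).
Suclg1: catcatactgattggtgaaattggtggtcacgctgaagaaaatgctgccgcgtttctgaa
Both malate dehydrogenases are shown by the first 30 bases, since their ratios differed in behaviour (Mdh1 chr11:21457280-21457339, minus strand, and Mdh2 chr5:136266157-136266216, plus strand). Neither probe has a reading frame without a stop.
Mdh1: agcaaaatattttaaatagtgtgtgcttta
Mdh2: tagtttgcgttgatggagggtgttgagtca
The longest run of bases shared by the Mdh1 and Mdh2 probes was 5, and by the Idh1 and Idh2 probes 6. No pair of the 9 probes shared more than 10.

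The 2 probes of Fh1 gave different results, so both are shown. The brighter one, which stands for the gene, lies at chr1:177531530-177531589 on the minus strand. Its last 30 bases hold AATAAA, in capitals, the letters of the common polyadenylation signal, which 10.1% of the 55681 probes on the array hold on the probe's own strand.
Fh1, probe used: agtgacttcAATAAAtttatattaaaataa
The other probe spans 2431 bases of the genome (chr1:177531659-177534089, minus strand), so that its 60 bases come from more than 1 exon, and it has 1 reading frame without a stop.
Fh1, other probe: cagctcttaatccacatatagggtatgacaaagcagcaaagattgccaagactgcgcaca

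An mRNA whose first base is C and whose first 5 or more bases are all pyrimidines (C or T in DNA) has a terminal oligopyrimidine start, the mark of many ribosomal protein mRNAs. Starts were read from RefSeq on GRCm38.p6, where 8 of the 9 genes matched, with 14 annotated starts. None of the 14 starts had such a run on the gene's strand, against 2.51% of all 32851 starts. The windows of the genes with a called difference between genotypes are given with 10 bases before the start in lower case and the first 20 transcribed bases in capitals (Mdh1 chr11:21571915-21571944, minus strand, and Suclg1 chr6:73248495-73248524, plus strand).
Mdh1 start: gggaattgtaGTTTAGCACTGTCAGGAATG
Suclg1 start: cttttcaaacGTCATCCTTCTTGTTCTTTT

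An array showed 14619 to 50776 polysomal probes well above background (median 20212.5), and 12531 to 30976 sub-polysomal probes (median 22889). Of the members, 8 passed in both channels on all 8 arrays of each genotype. The Idh1 probe passed on 3 of 8 polysomal and 0 of 8 sub-polysomal arrays of WT, and on 3 and 2 of 8 arrays of Lck-/-, so it was not tested. No member's spot was saturated. All 7 T cell markers were detected. Among the markers of other cell types, 1 of 3 for B cells, 2 of 5 for myeloid cells, 0 of 4 for dendritic cells, 0 of 2 for NK cells, 1 of 3 for stromal cells and 0 of 1 for erythroid cells were detected. The detected ones were Cd79b, Csf1r, Itgam and Pecam1, and Ms4a1, Lyz2 and Col1a1 were among those not detected. Itgam, which encodes an integrin of myeloid cells, had a mean log2 level of 10.49 in WT and 9.79 in Lck-/-, and Csf1r 9.63 and 9.91. The summed level of the 7 T cell markers was 16.43 to 16.73 in WT and 16.75 to 16.86 in Lck-/- (log2), without overlap. Intensities were summed before the log, so Thy1, the brightest, weighs most (mean 15.22 in WT and 15.67 in Lck-/-). The means of Cd8a, Cd8b1 and Cd2 were also higher in Lck-/-. Those of Cd3e (14.11 and 13.77) and Cd3d (14.18 and 13.82) were lower, and Cd3g was level (12.44 and 12.45). The summed level of the 5 myeloid markers was 10.73 to 11.61 in WT and 10.82 to 11.41 in Lck-/-, and that of the 3 B cell markers 8.91 to 9.07 and 8.88 to 9.33, both overlapping. The part of these cell types in the results was not tested. Lck itself, the check of the labels, was lower in Lck-/- by 0.92 (SE 0.19, limma adjusted p = 0.0103) in the polysomal pool. It was lower by 0.79 (SE 0.12, adjusted p = 0.00266) in the sub-polysomal pool, both in log2, and the extracts did not overlap. With crossed dye swaps both Lck calls held (adjusted p = 0.0317 and 0.011). The sources used here do not say which part of Lck is deleted, so its remaining signal was not tested. The labels call the extracts biological replicates and do not say whether animals or cultures were separate, so p-values measure the spread between these samples only. Each extract is a bulk sample, in which fewer cells and less RNA per cell cannot be told apart.

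Some arrays stood apart. The arrays of WT replicates 1 and 2 went against their own dye swaps: the correlation of their deviations from the WT mean was -0.87 and -0.83, against 0.20 to 0.69 in the other 6 extracts. WT replicate 1 matched the dye swap of WT replicate 2 at 0.77, and WT replicate 2 matched that of WT replicate 1 at 0.86. The cycle genes show it. The Suclg1 ratio (log2 polysomal over sub-polysomal) was 0.37 and 2.52 on the arrays labelled WT 1, and 2.33 and 0.22 on those labelled WT 2. The Ogdh ratio was 1.28 and -0.85 on the WT 1 arrays and -0.95 and 1.46 on the WT 2 arrays. With the 2 dye-swap arrays exchanged, which is called crossed below, the Suclg1 ratios became 0.29 and 2.43, and those of Ogdh 1.37 and -0.90. Crossing keeps the WT mean and changes its spread, so the called differences between genotypes are given with the adjusted p or the call after crossing. Where extracts are said not to overlap, the arrays are paired as labelled unless crossing is named. Over all genes, crossing left 0.483% called in the ratio difference, 6.77% in the polysomal and 10.9% in the sub-polysomal level. The Cs spot was also far dimmer on the dye-swap array of WT replicate 1, at 10.35 in the polysomal and 10.33 in the sub-polysomal channel (log2 intensity), than on the other 15 arrays, where it lay between 13.56 and 14.86.

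**Figure D1:**
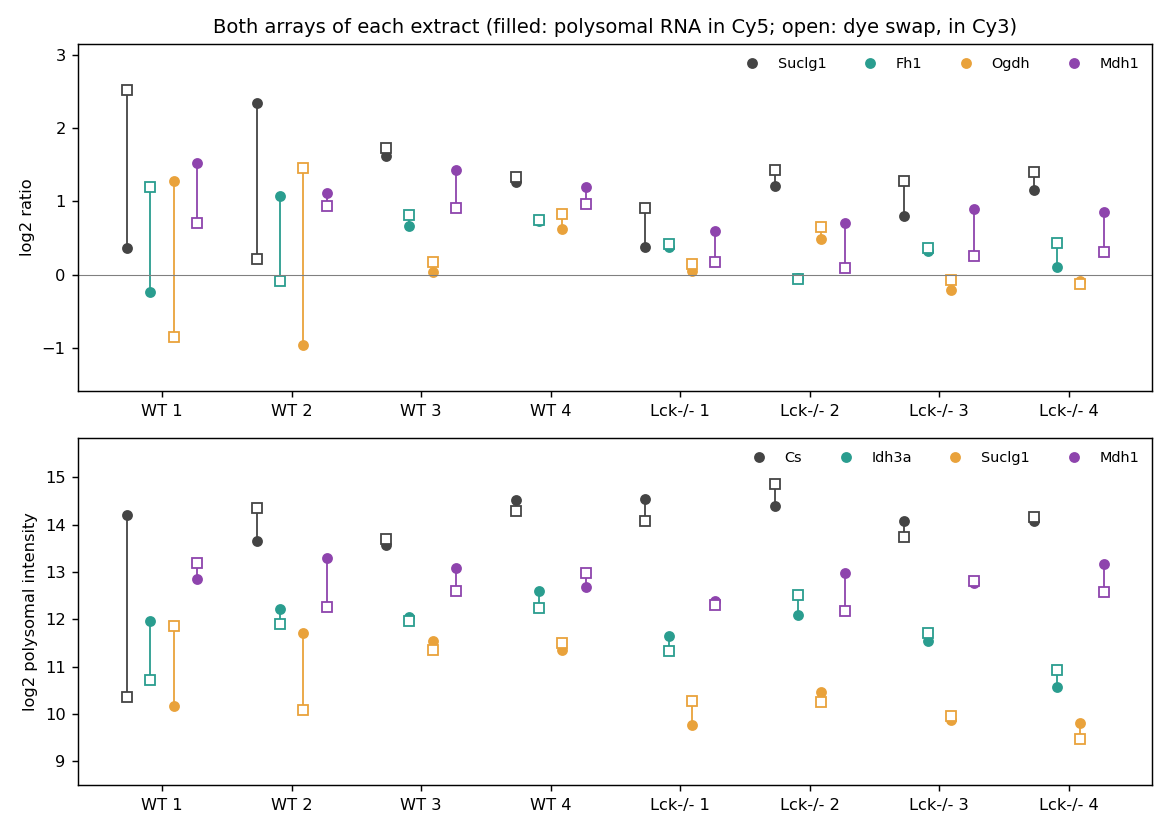
Both arrays of each extract for selected genes. The upper panel plots log2 polysomal over sub-polysomal ratios and the lower panel log2 polysomal intensities, with filled circles for polysomal RNA in Cy5, open squares for the dye swap and a line joining the 2 arrays of an extract. The squares and circles of Suclg1, Fh1 and Ogdh lie far apart in WT 1 and WT 2, with Suclg1 at 0.37 and 2.52 in WT 1, and the Cs square of WT 1 lies at 10.35.

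The first question was where the cycle mRNAs stood between the pools in each genotype. In WT, 6 of the 8 tested genes were called higher in the polysomal pool, with ratios from 0.39 for Idh3a to 1.42 for Suclg1, against 32.7% of all 8482 genes tested that were called higher, 28.9% called lower and 61.6% called either way. In Lck-/-, 5 of 8 were called higher, against 26.2% of all genes, with 29% called lower and 55.2% called either way. None was called lower in either genotype, and 4 (Idh2, Suclg1, Mdh1 and Mdh2) were called in both. The median over the members was 0.65 in WT against 0.04 for all genes, and 0.45 in Lck-/- against -0.04. The value 0 is the typical mRNA of an array, because loess centres the ratios of each array, so a ratio places an mRNA among the others and gives no share of molecules on polysomes. A gene is called when its adjusted p is below 0.05.

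**Figure D2:**
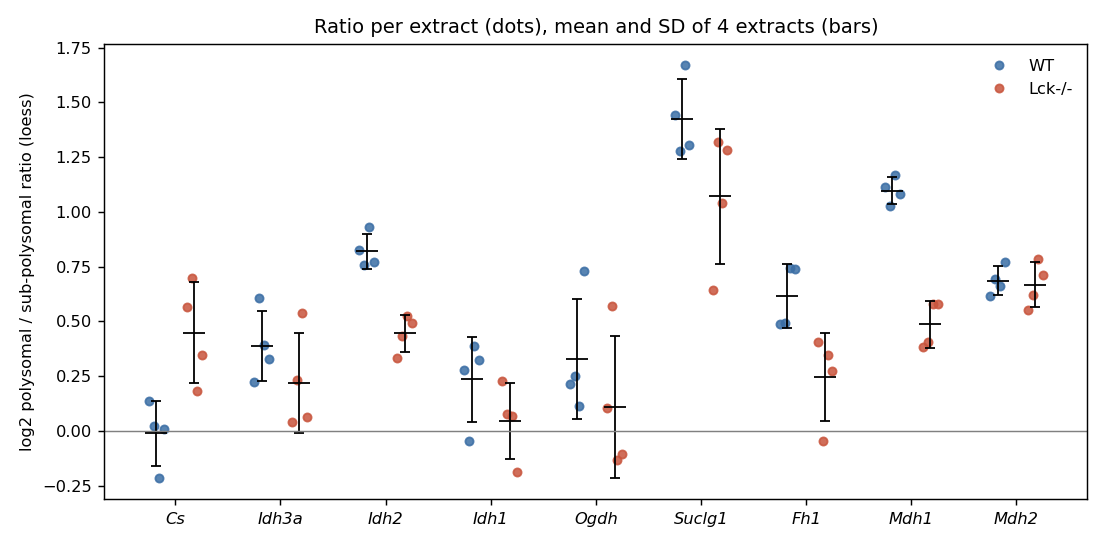
The log2 ratio of polysomal over sub-polysomal RNA after loess, for the 4 WT (blue) and 4 Lck-/- (red) extracts of each gene, with horizontal bars for means and whiskers for the SD of 4 extracts. Mdh1 lies at 1.03 to 1.17 in WT and 0.38 to 0.58 in Lck-/-. With arrays paired as labelled, Cs is the gene with the Lck-/- extracts above all WT extracts. The Idh1 probe was not well above background on most arrays.

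Citrate synthase, encoded by Cs, joins acetyl-CoA to oxaloacetate and opens the cycle. Its ratio in the 4 WT extracts was 0.14, 0.02, -0.22 and 0.01, and in the 4 Lck-/- extracts 0.57, 0.70, 0.18 and 0.35. With arrays paired as labelled, all Lck-/- extracts lay above all WT extracts, and after crossing WT replicate 1 stood at 0.22. WT averaged -0.01 ± 0.15 and Lck-/- 0.45 ± 0.23 (SD, n = 4 each), and in Lck-/- Cs was called (adjusted p = 0.00379). The Cs call in Lck-/- was lost under median centring in place of loess (0.51, adjusted p = 0.0813) and with the authors' ratios centred by column (0.25, adjusted p = 0.0623). The dim Cs spot touched both channels of its array alike, and the ratio there was 0.02.

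Isocitrate dehydrogenases turn isocitrate into oxoglutarate. Idh3a encodes the alpha subunit of the NAD-dependent mitochondrial enzyme, and its ratio was 0.22, 0.60, 0.39 and 0.33 in WT and 0.04, 0.23, 0.54 and 0.06 in Lck-/-. The genotypes overlapped. The WT mean of 0.39 ± 0.16 (SD, n = 4) was called (adjusted p = 0.00739), and the Lck-/- mean of 0.22 ± 0.23 (SD, n = 4) was not (adjusted p = 0.095). The WT call was lost when WT replicates 1 and 2 were left out (0.36, adjusted p = 0.0921), on slide 1 alone (0.20, adjusted p = 0.292) and with Agilent's processed signals (0.27, adjusted p = 0.153).

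Idh2 encodes the NADP-dependent enzyme of mitochondria. Its ratio was 0.82, 0.76, 0.93 and 0.77 in WT, and 0.33, 0.43, 0.53 and 0.49 in Lck-/-. All WT extracts lay above all Lck-/- extracts, and both means, 0.82 ± 0.08 and 0.45 ± 0.08 (SD, n = 4 each), were called under all 22 other settings. Idh1, its cytosolic counterpart, gave 0.28, -0.05, 0.39 and 0.32 in WT and 0.23, 0.08, 0.07 and -0.19 in Lck-/- from spots mostly not well above background, and no fold is given.

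Ogdh encodes the enzyme of the oxoglutarate dehydrogenase complex that removes carbon dioxide from oxoglutarate. Its ratio was 0.21, 0.25, 0.11 and 0.73 in WT and 0.10, 0.57, -0.13 and -0.11 in Lck-/-. Neither Ogdh mean was called, at 0.33 ± 0.27 (SD, n = 4, adjusted p = 0.0525) and 0.11 ± 0.32 (SD, n = 4, adjusted p = 0.511). The WT mean of Ogdh was called under 9 of the 22 other settings. On slide 1 alone the WT value was 0.88 and called (adjusted p = 0.00504), and on slide 2 alone it was -0.23. It was also called without the dye-swap array of WT replicate 1 (0.59, adjusted p = 0.0174), without Lck-/- replicate 2 (adjusted p = 0.0244), with the mean of all probes (0.27, adjusted p = 0.0458) and with a variance trend (adjusted p = 0.0379). Median centring (1.50), no normalisation (1.78) and the ratios of the authors' deposited table, as given (2.19) and centred (0.43, adjusted p = 0.0173), were the other 4, but with crossed dye swaps its adjusted p was 0.384. Of the other Ogdh probes, 1 gave means of 0.47 in WT and 0.07 in Lck-/-, and the dimmest gave 0.02 and 0.17.

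Suclg1 encodes the alpha subunit of succinyl-CoA ligase, the step of the cycle that makes a nucleoside triphosphate directly. Its ratio was 1.44, 1.28, 1.67 and 1.30 in WT and 0.64, 1.32, 1.04 and 1.28 in Lck-/-. Among the members its mean ratio was highest in both genotypes, 1.42 ± 0.18 and 1.07 ± 0.31 (SD, n = 4 each), a 2.68-fold and a 2.10-fold excess over the typical mRNA. Both were called under all 22 other settings, crossing included (adjusted p = 0.00247 in WT and 0.0138 in Lck-/-).

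Fh1 encodes fumarase, which adds water to fumarate. Its ratio was 0.49, 0.49, 0.75 and 0.74 in WT and 0.40, -0.05, 0.35 and 0.27 in Lck-/-. With arrays paired as labelled, all WT extracts lay above all Lck-/- extracts. After crossing, WT replicates 1 and 2 stood at -0.16 and 1.14. The WT mean of 0.62 ± 0.15 (SD, n = 4) was called (adjusted p = 0.000316), except on slide 1 alone (0.31, adjusted p = 0.196). The Lck-/- mean of 0.24 ± 0.20 (SD, n = 4) was not called (adjusted p = 0.052). The other Fh1 probe gave 0.91, 0.89, 1.04 and 1.10 in WT and 0.72, 0.59, 1.21 and 1.30 in Lck-/-. On that probe the genotypes overlapped, with means of 0.98 and 0.95, and the Lck-/- mean was called (adjusted p = 0.000137 in the fit over all probes).

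Malate dehydrogenases turn malate into oxaloacetate, Mdh2 in mitochondria as the last step of the cycle and Mdh1 in the cytosol, where it serves the malate-aspartate shuttle. The Mdh1 ratio was 1.11, 1.03, 1.17 and 1.08 in WT and 0.38, 0.40, 0.58 and 0.58 in Lck-/-. With arrays paired as labelled, these groups were tight and far apart, with means of 1.10 ± 0.06 and 0.49 ± 0.11 (SD, n = 4 each). After crossing, WT replicates 1 and 2 of Mdh1 stood at 1.23 and 0.91. The Mdh2 ratio was 0.62, 0.69, 0.66 and 0.77 in WT and 0.55, 0.62, 0.79 and 0.71 in Lck-/-. The genotypes overlapped almost fully for Mdh2, with means of 0.69 ± 0.07 and 0.67 ± 0.10 (SD, n = 4 each). All 4 of these means were called under all 22 other settings.

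The next question was whether the ratio differed between genotypes. Mdh1 was lower in Lck-/- by 0.61 in log2, or 1.53-fold (SE 0.11, 95% confidence interval -0.86 to -0.36, limma adjusted p = 0.0164). It was the 1 member called of 8, against 3.65% of all genes called either way, 2.69% higher and 0.967% lower. With the dye swaps crossed the difference was the same size but not called (SE 0.15, adjusted p = 0.164). WT and Lck-/- extracts of Mdh1 did not overlap then either, because the crossed WT ratios were 1.23 and 0.91. The call was also lost without WT replicates 1 and 2 (-0.64, adjusted p = 0.133), with Agilent's processed signals (-0.60, adjusted p = 0.214), and on leaving out WT replicate 1 (0.061), WT replicate 3 (0.0537) or Lck-/- replicate 3 (0.0508). It held with slide and dye as terms over all 16 arrays (adjusted p = 0.00242), and was -0.67 on slide 1 and -0.56 on slide 2, without a call on either alone (adjusted p = 0.201 and 0.271).

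The Mdh1 probe also read differently by dye. Its ratio was higher with polysomal RNA in Cy5 than in Cy3 in 8 of 8 extracts. With polysomal RNA in Cy5 the ratios were 1.12 to 1.52 in WT and 0.60 to 0.89 in Lck-/-. With the dyes swapped they were 0.71 to 0.96 in WT and 0.10 to 0.31 in Lck-/-. The genotypes did not overlap in either orientation, and each extract holds 1 array of each. Means in Cy5 and Cy3 were 1.32 and 0.88 in WT and 0.76 and 0.21 in Lck-/-. Whether the dye offset differs between genotypes was not tested.

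The 7 other tested members were not called. Idh2 differed by -0.37 (SE 0.11, confidence interval -0.62 to -0.13, adjusted p = 0.0963) and Fh1 by -0.37 (SE 0.14, adjusted p = 0.174), while the other Fh1 probe differed by -0.03 (SE 0.17). Cs differed by 0.46 (SE 0.14, confidence interval 0.14 to 0.78, adjusted p = 0.115). The Cs direction turned under median centring and without normalisation (-0.61 in both) and with the ratios of the authors' deposited table, not centred (-0.87). The rest were -0.35 for Suclg1, -0.22 for Ogdh, -0.17 for Idh3a and -0.02 for Mdh2, with a confidence interval of -0.26 to 0.23 for Mdh2 in this fit. Outside that interval, Mdh2 differed by -0.39 with Agilent's processed signals and by -0.33 with the authors' ratios centred by column. Neither was called. With arrays paired as labelled, extracts did not overlap for 1 member that was higher (Cs) and 3 that were lower (Idh2, Fh1 and Mdh1), against 5.62% and 8.67% of all genes, 14.3% in all. With crossed dye swaps Idh2 and Mdh1 still did not overlap, but Cs and Fh1 did. A crossed WT ratio of Cs was 0.22, above Lck-/- replicate 3 at 0.18. For Fh1 a crossed WT ratio of -0.16 lay below all Lck-/- extracts. The members' median difference was -0.29, against -0.04 for all genes.

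**Figure D3:**
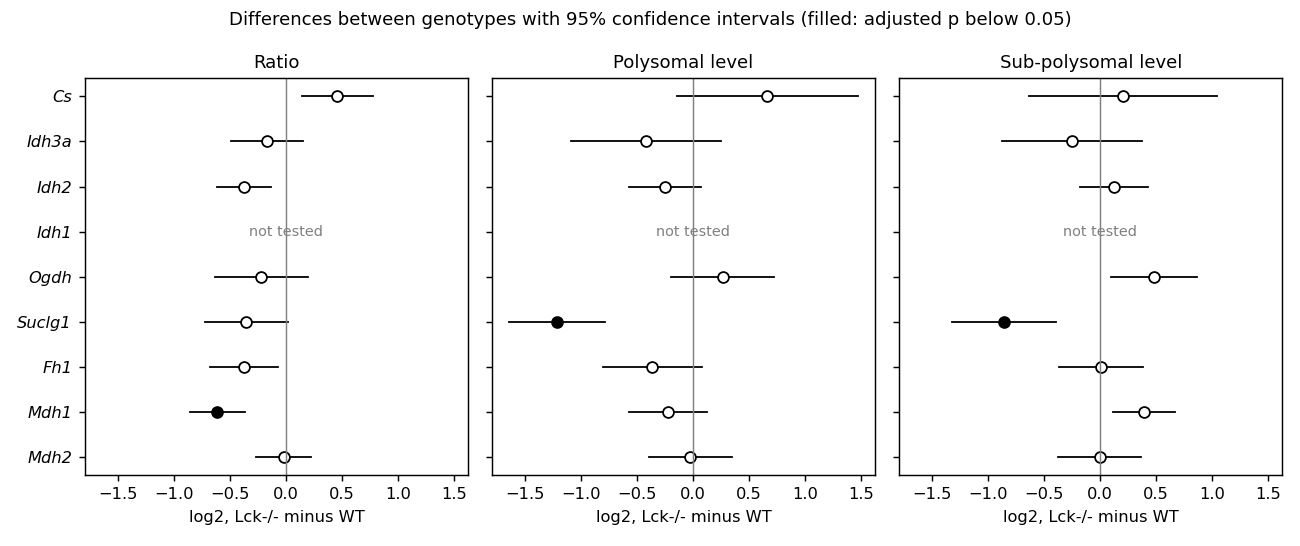
Differences between genotypes (log2, Lck-/- minus WT) of the ratio and of the level in the polysomal and the sub-polysomal pool, with 95% confidence intervals from the limma fit. Filled points have an adjusted p below 0.05, Mdh1 in the ratio (-0.61) and Suclg1 in both levels (-1.21 and -0.86), and open points do not.

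These differences are relative to the typical mRNA, which itself moved between the raw arrays. Without normalisation the median ratio of all genes stood at 1.32 ± 0.30 among WT and at 0.51 ± 0.26 among Lck-/- extracts (SD, n = 4 each), a difference of -0.81. All 8 tested members were then called lower in Lck-/-, as were 5990 of the 8482 genes tested. Among the 8 tested members Mdh1 moved most, from 2.58 ± 0.38 in WT to 0.98 ± 0.40 in Lck-/- (-1.60), and Cs least, from 1.40 ± 0.36 to 0.78 ± 0.19 (-0.61), either side of the genes' median difference of -0.77. Labelling took 1.5 µl from either pool whatever its RNA content, so the amount of RNA in a pool, its labelling and a shift of mRNA between pools cannot be told apart in the raw ratio.

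Levels in each pool were then compared, as log2 intensities of single channels scaled between arrays. Suclg1 fell in both pools and was the 1 member called of 8 in each. Of all genes, 15% were called in the polysomal pool (5.6% higher, 9.37% lower) and 19.3% in the sub-polysomal pool (8.54% higher, 10.8% lower). In the polysomal pool it was 11.01, 10.90, 11.44 and 11.43 in WT and 10.01, 10.36, 9.92 and 9.64 in Lck-/-. With arrays paired as labelled, all Lck-/- extracts lay below all WT extracts, by 1.21 on average or 2.32-fold (SE 0.20, adjusted p = 0.00351). With crossed dye swaps the genotypes overlapped. WT arrays at 10.16 and 10.08 were then joined, both below Lck-/- replicate 2 at 10.36. In the sub-polysomal pool it was 9.57, 9.62, 9.77 and 10.12 in WT and 9.37, 9.04, 8.88 and 8.36 in Lck-/-. Here too no extract overlapped as labelled, and the difference was -0.86 or 1.81-fold (SE 0.21, adjusted p = 0.0178). Crossing joined WT arrays at 9.384 and 9.345, about level with the highest Lck-/- extract at 9.369.

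Both Suclg1 calls held with the dye swaps crossed (adjusted p = 0.0433 and 0.0365) and without WT replicates 1 and 2 (-1.45 and -1.03, adjusted p = 0.0283 and 0.0392). The polysomal difference was -0.90 on slide 1 (adjusted p = 0.192) and -1.53 on slide 2 (0.00227), and the sub-polysomal difference -1.003 on slide 1 (0.0146) and -0.71 on slide 2 (0.142). The sub-polysomal call was lost without Lck-/- replicate 3 (-0.85, adjusted p = 0.0509). It was also lost under median centring (-0.47, adjusted p = 0.188) and without normalisation (-0.52, adjusted p = 0.154), where the median of all genes in that pool moved from 0.05 to 0.36 and 0.35.

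**Figure D4:**
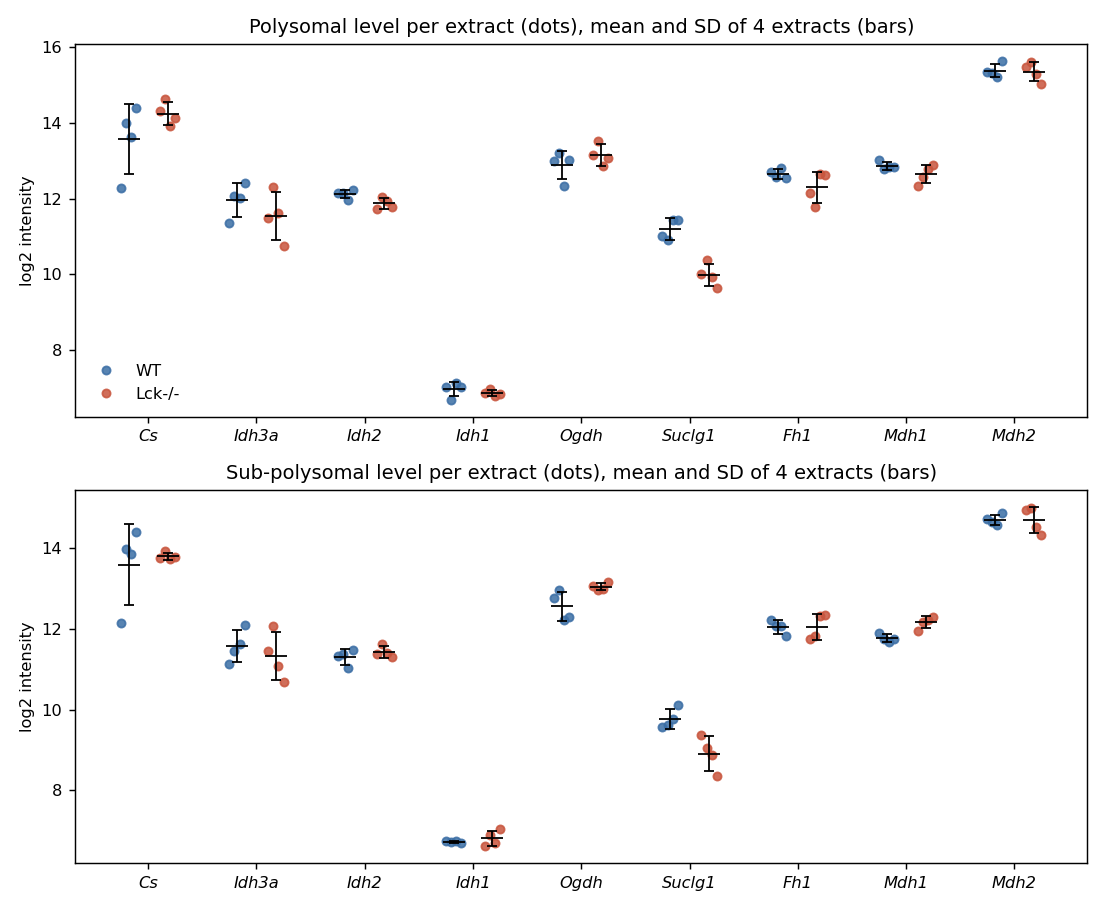
Levels (log2 intensity) of each gene in the polysomal pool (upper panel) and the sub-polysomal pool (lower panel), for the 4 WT (blue) and 4 Lck-/- (red) extracts, with horizontal bars for means and whiskers for the SD of 4 extracts. With arrays paired as labelled, the Suclg1 extracts separate by genotype in both panels. In both, 1 WT extract of Cs sits near 12, and intensities of different probes are not comparable.

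Mdh1 gave 13.02, 12.78, 12.84 and 12.83 in the polysomal pool of WT and 12.34, 12.58, 12.78 and 12.88 in that of Lck-/-. In the sub-polysomal pool it gave 11.90, 11.75, 11.67 and 11.75 in WT and 11.95, 12.18, 12.21 and 12.30 in Lck-/-. The pools went opposite ways, with the polysomal extracts overlapping (-0.22, SE 0.16, adjusted p = 0.371) and all sub-polysomal extracts higher in Lck-/- (0.39, SE 0.13, adjusted p = 0.0522). Neither was called. The sub-polysomal difference was called without the dye-swap array of WT replicate 1 (0.54, adjusted p = 0.0197), on slide 1 alone (0.55, adjusted p = 0.0287) and without Lck-/- replicate 1 (0.46, adjusted p = 0.0311). It was larger and called under median centring (0.88) and without normalisation (0.84), the settings that also raised the median of all genes in that pool.

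Ogdh gave 12.77, 12.96, 12.23 and 12.29 in the sub-polysomal pool of WT and 13.05, 12.96, 13.00 and 13.17 in that of Lck-/-, where WT was the more spread group. The lowest Lck-/- extract lay just above the highest WT extract, and the difference of 0.48 (SE 0.17) was not called (adjusted p = 0.0712). It was called without WT replicates 1 and 2 (0.79, adjusted p = 0.0239), without WT replicate 2 (0.61, adjusted p = 0.0408), on slide 1 alone (0.73, adjusted p = 0.00377) and without the dye-swap array of WT replicate 1 (0.60, adjusted p = 0.024). Median centring gave 0.997 and no normalisation 0.95, both called. Of the other Ogdh probes, 1 differed by 0.36 (SE 0.15) in the sub-polysomal pool and the dimmest by 0.006 (SE 0.19). Neither was called in the fit over all probes. In the polysomal pool Ogdh overlapped (0.26, SE 0.21). In the sub-polysomal pool, 2 members had all Lck-/- extracts higher (Ogdh and Mdh1) and 1 lower (Suclg1), against 13.4% and 12.5% of all genes, 25.9% in all. In the polysomal pool this was 0 higher and 1 lower, against 9.46% and 13.1%, 22.6% in all. These counts are for arrays paired as labelled. With crossed dye swaps Ogdh and Mdh1 overlapped in the sub-polysomal pool. The WT arrays then joined read 13.47 and 13.24 for Ogdh, above all Lck-/- extracts. For Mdh1 they read 12.18 and 12.48, and their mean lay above all Lck-/- extracts, of which the highest was 12.30.

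Cs gave 12.28, 14.00, 13.63 and 14.40 in the polysomal pool of WT and 14.31, 14.63, 13.91 and 14.12 in that of Lck-/-. The low WT extract is replicate 1, with the dim spot. The polysomal difference was 0.66 (SE 0.37, adjusted p = 0.24) with that array and 0.18 (SE 0.21) without it, and the sub-polysomal difference 0.20 (SE 0.38) with it and -0.25 (SE 0.15) without it. On the same array Idh3a was at 10.71 and 10.36, the lowest of its WT arrays in both channels.

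The remaining members were not called in either pool. Idh2 differed by -0.25 (SE 0.15) in the polysomal and 0.12 (SE 0.14) in the sub-polysomal pool, and Idh3a by -0.42 (SE 0.31) and -0.25 (SE 0.28). Mdh2 differed by -0.02 (SE 0.17) and -0.005 (SE 0.17), with a polysomal interval of -0.39 to 0.34. Fh1 differed by -0.36 (SE 0.20) and 0.01 (SE 0.17). Its other probe was lower in Lck-/- in both pools, by 0.64 (SE 0.18, adjusted p = 0.0334) and 0.61 (SE 0.14, adjusted p = 0.0144) in the fit over all probes, where the probe used was not called. With crossed dye swaps the polysomal difference of that other probe was not called (adjusted p = 0.175) and the sub-polysomal one was (adjusted p = 0.0441). The median over the members was -0.24 in the polysomal pool (all genes -0.002) and 0.07 in the sub-polysomal pool (all genes 0.05).

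The members did not move as a unit across extracts. Over the 28 pairs of tested members, the correlation of levels (mean of both pools) ran from -0.84 for Fh1 with Mdh2 to 0.77 for Idh3a with Mdh2, with a median of 0.06. These points share arrays and dyes, and 8 extracts of 2 genotypes stand behind each. The genes most like the members' mean level over the 8 extracts were Sumo2 (r = 0.97), Mkrn2 (0.94) and Rchy1 (0.94), of 8927 genes searched. That mean level includes Cs, with the dim spot of WT replicate 1, and its part in the likeness was not tested.

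The other subunits of the cycle's enzymes were followed through 10 genes, all of which were tested. In WT 5 had ratios called higher and 1 lower, with a median of 0.26, where 32.7% of all genes were higher and 28.9% lower. The smallest p-values were those of Sdha (0.61) and Sucla2 (0.77), a subunit of succinate dehydrogenase and the ADP-specific partner of Suclg1, and of Idh3g (-0.74), a regulatory partner of Idh3a, and Dld (0.35). In Lck-/- 3 were higher and 1 lower, with Sucla2 at 0.67, Idh3b at 0.43, Sdha at 0.28 and Idh3g at -0.84, where 26.2% of all genes were higher and 29% lower. The Idh3b and Sdha calls were lost with crossed dye swaps (adjusted p = 0.239 and 0.205). No ratio in the list differed between genotypes by the test (smallest p for Dld, -0.44, adjusted p = 0.0635, and Sdha, -0.33, adjusted p = 0.129).

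Partners of the members differed in level. In the polysomal pool Idh3b, which forms an enzyme with Idh3a, was lower in Lck-/- by 1.06 (SE 0.19, adjusted p = 0.0055), and Suclg2, the GTP-specific partner of Suclg1, by 0.88 (SE 0.16, adjusted p = 0.0069). No gene of the list was higher there, and these were the 2 of 10 that were lower, against 9.37% of all genes. In the sub-polysomal pool Idh3b was lower by 1.20 (SE 0.19, adjusted p = 0.00322) and Suclg2 by 0.75 (SE 0.19, adjusted p = 0.0218). Dlst, the core of the oxoglutarate dehydrogenase complex, was higher there by 0.46 (SE 0.13, adjusted p = 0.0298), and Sdhc, a membrane anchor of succinate dehydrogenase, by 0.49 (SE 0.15, adjusted p = 0.0451), so that 2 of 10 were lower and 2 higher, against 10.8% and 8.54% of all genes. None of these extracts overlapped between genotypes. Crossing the dye swaps kept the Suclg2 calls and the sub-polysomal Idh3b call, and lost the polysomal Idh3b call (adjusted p = 0.0556) and those of Dlst (0.0565) and Sdhc (0.0814). Over the 21 other settings the polysomal calls were lost in 2 for Idh3b and 1 for Suclg2, and the sub-polysomal calls in 1 for Idh3b, 7 for Suclg2 (adjusted p up to 0.182) and 11 each for Dlst and Sdhc (up to 0.279 and 0.478). Leaving out 1 extract ended the Suclg2 sub-polysomal call for WT replicate 3 (0.0579), Lck-/- replicate 3 (0.0649) and Lck-/- replicate 4 (0.0636). List medians were -0.14 in the polysomal and 0.18 in the sub-polysomal pool.

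Genes that bring pyruvate to the cycle were a list of 13, of which 10 were tested for the ratio and 11 for each level. In WT 6 ratios were higher and 1 lower, shares to be set beside the 32.7% and 28.9% of all genes, with Pdk1 (0.70), a kinase that switches off pyruvate dehydrogenase, Mpc2 (0.51) and Dlat (0.45) high and Mpc1 (-0.50) low. Mpc1 and Mpc2 form the mitochondrial pyruvate carrier. In Lck-/- 3 were higher and 2 lower, Mpc1 at -0.998, Pdp2 at 0.57, Pdha1 at 0.51 and Pdhx at -0.38, beside 26.2% and 29% of all genes. Between genotypes 0 ratios were called (Mpc1 -0.50, adjusted p = 0.0595, and Mpc2 -0.38, adjusted p = 0.0949). In the polysomal pool Mpc1 was lower in Lck-/- by 1.08 (SE 0.16, adjusted p = 0.00261) and Pdk3, another pyruvate dehydrogenase kinase, by 0.75 (SE 0.18, adjusted p = 0.0221), 2 of 11 against 9.37% of all genes. Both held with crossed dye swaps (adjusted p = 0.0118 and 0.0418). The Mpc1 call was lost under 1 of the 21 other settings, slide 1 alone (0.054). That of Pdk3 was lost under 7: slide 1 alone (0.0903), without WT replicates 1 and 2 (0.0569), and without WT replicate 2 (0.053), 3 (0.0598) or 4 (0.0558) or Lck-/- replicate 3 (0.0533) or 4 (0.0704). Dlat was higher in the sub-polysomal pool by 0.50 (SE 0.14, adjusted p = 0.0316), a call lost under 8 of 21 settings, crossed dye swaps among them (adjusted p = 0.0531). It was 1 of 11, against 8.54% of all genes higher. The list's medians between genotypes were -0.27 for the ratio, -0.17 for the polysomal and 0.05 for the sub-polysomal level.

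Genes by which carbon enters or leaves the cycle elsewhere were a list of 9, of which 7 were tested for the ratio. In WT 5 ratios were higher (32.7% of all genes) and 0 lower. Those with the smallest p were Me2 (0.43), Acly (0.42), Got2 (0.37) and Slc25a1 (0.36), and Slc25a11, at 0.38, was the other. In Lck-/- 2 were higher, Glud1 (0.49) and Acly (0.34), where 26.2% of all genes were. The ratio differed for 0 genes between genotypes (Slc25a1 -0.39, adjusted p = 0.13, and Got2 -0.38, adjusted p = 0.137). In the polysomal pool Slc25a1, the citrate carrier, was lower in Lck-/- by 0.73 (SE 0.19, adjusted p = 0.0283), and Got2, the mitochondrial aspartate aminotransferase of the malate-aspartate shuttle, by 0.76 (SE 0.22, adjusted p = 0.0384). These 2 of 8 stood against 9.37% of all genes. With crossed dye swaps neither was called (adjusted p = 0.0527 and 0.0692), and over 21 settings the Slc25a1 call was lost in 10, including each single WT extract left out, and the Got2 call in 13. None of 7 was called in the sub-polysomal pool. Leaving out 1 extract also ended other level calls of list genes, with a highest adjusted p of 0.0868 for Dlst, 0.12 for Sdhc and 0.0913 for Dlat without Lck-/- replicate 4, and of 0.0885 for Slc25a1 and 0.107 for Got2 without the same extract. Of the 22 called ratios named for list genes in either genotype, 6 kept call and direction under all 22 settings (Sucla2, Mpc2, Pdk1 and Dlat in WT, Sucla2 and Pdha1 in Lck-/-), and the others did not under 1 to 7.

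**Figure D5:**
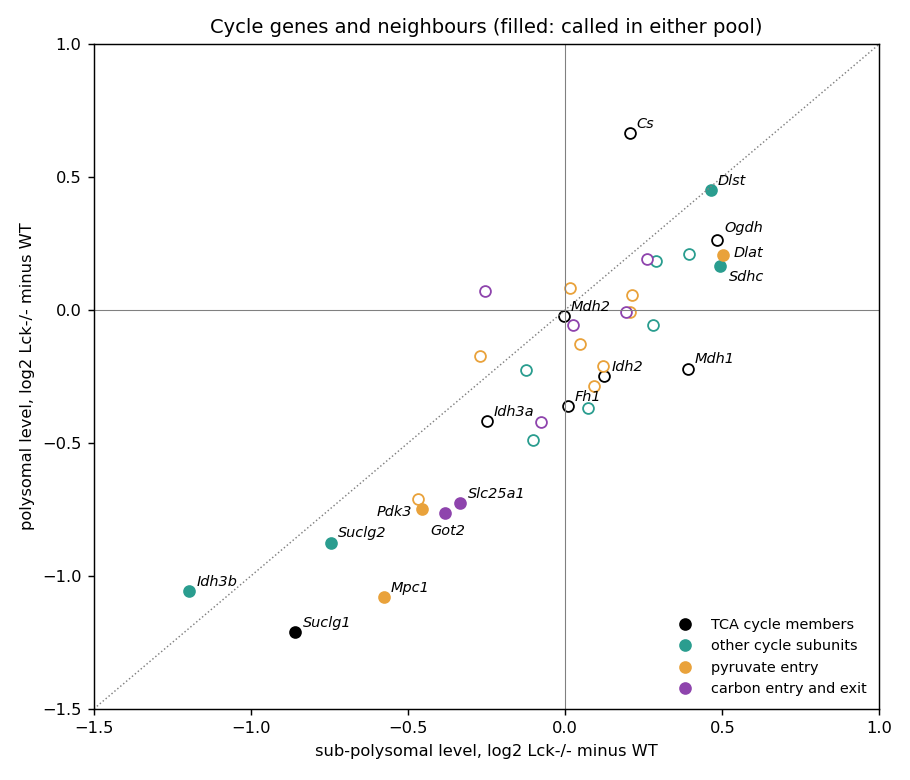
Differences in level (log2, Lck-/- minus WT) in the sub-polysomal pool (horizontal) and the polysomal pool (vertical) for the TCA cycle members and the other pathway lists, filled where either pool was called, with a dotted line of equal difference. Suclg1 (-0.86 and -1.21) lies at the lower left with Suclg2 and Idh3b, and Mdh1 (0.39 and -0.22) lies below the dotted line.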

How the data were processed

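Per the file headers, Agilent Feature Extraction 10.7.3.1 wrote the scanner files, whose mean spot, median background and processed signals are of unit intensity. The yes-or-no flags deposited beside them (unit other) mark dim, saturated and outlying spots. The authors' deposited values of log2 polysomal/sub-polysomal ratios have a column for each extract; limma stands without a version in the submitters' processing notes. These columns were tied to genotypes only, and were not centred, with medians of 1.45 to 2.51 in WT and 0.54 to 0.64 in Lck-/-.

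R 4.3.3 and limma 3.58.1 were used. Steps were normexp background correction (offset 50), loess within arrays with controls and outliers at weight 0, Aquantile for single channels, and the mean of both dye orientations per extract. Each gene was read from its brightest probe. Ratio comparisons took genes whose probe passed the background flag on 6 or more of the 8 arrays per genotype, for polysomal and for sub-polysomal RNA (8482 genes). Level comparisons asked this of their own channel in 1 genotype or more (10292 genes polysomal, 9703 sub-polysomal). limma models over all 8 extracts, tested on simulated data, gave p-values adjusted by Benjamini-Hochberg over all genes tested. The number of arrays limits the precision. Of the probes, 31381 had a gene (27235 by RefSeq accession, 3581 by symbol, 565 by synonym) and 24300 had none.

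All 9 members are named in every comparison. Of each pathway list, the genes that passed are named, at most the 4 with the smallest p, or otherwise the 2 with the smallest p. Some genes of the pathway and marker lists are not reported here and were left out of their counts and medians. Members and lists were chosen with earlier results of these data known. Alternatives changed background correction, normalisation, filter, probe, slide, variance model, dye-swap pairing and the extracts used, or took the authors' ratios. Leaving out the dye-swap array of WT replicate 1 was chosen after seeing the data.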

Additional observations from a re-analysis of the deposited data

Results flagged for a closer look

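The Mdh1 ratio differed between genotypes by a test of the difference itself, -0.61 in log2 (Lck-/- minus WT, limma adjusted p = 0.0164), with the 4 WT extracts between 1.03 and 1.17 and the 4 Lck-/- extracts between 0.38 and 0.58. Over the other settings its adjusted p ran from 1.5e-07 to 0.271, and the direction was the same in each. No extract of the 54 groups of 4 values examined (members, measures and genotypes) stood apart from the other 3 by Dixon's criterion at 95%, which chance alone would pass in about 1 group of 20.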

How the results depend on the processing

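The counts of members called in the WT ratio (6, lowest 5 and highest 8) stayed within 1.5 times under the other settings, and the cause of the changes below was not tested. The share of all genes called in the WT ratio was 61.6%, and ran from 26.4% (no filter) to 96% (authors' ratios). In the Lck-/- ratio 5 members were called (55.2% of all genes), and 8 without normalisation (60.2%) and 8 with the authors' ratios (59.6%). The ratio difference (1 called) gave 0 with Agilent's processed signals, 0 on slide 1, 0 on slide 2, 0 with crossed dye swaps, 0 without WT replicates 1 and 2, 2 with slide and dye terms, 7 under median centring, 8 without normalisation, 8 with the authors' ratios and 3 with these centred. Leaving out 1 extract gave 0 to 1. The share of all genes called went the same way, from 3.65% to 0.141% (Agilent's signals), 2.64% and 0.778% (slides 1 and 2), 0.483% (crossed), 1.01% (without WT replicates 1 and 2), 55.8% (median centring), 71.1% (no normalisation), 89.2% (authors' ratios) and 8.72% (centred). The polysomal level (1 called, 15% of all genes) gave 4 under median centring (21.7%), 5 without normalisation (21.8%) and 0 on slide 1 (1.54%). The sub-polysomal level (1 called, 19.3% of all genes) gave 4 under median centring (40%), 3 without normalisation (36.3%), 2 without a filter (7.82%) and 2 with the mean of all probes (19.7%). It gave 3 on slide 1 (24.9%), 0 on slide 2 (2.75%), 2 without WT replicates 1 and 2 (10.9%) and 2 with a variance trend (19.8%). Without the dye-swap array of WT replicate 1 it gave 3 (26.9%), and without 1 extract 0 to 2 (10.3% to 20.2%).

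Deviations of same-numbered WT and Lck-/- extracts had correlations of 0.06, -0.17, 0.26 and -0.24 for the ratio. Replicate 3 also had the highest in the polysomal (0.48) and the sub-polysomal level (0.28). Those of the other numbers ran from -0.29 to 0.06 over ratio and levels. WT replicates 1 and 2 each average arrays that went against each other, so these values cannot decide whether the numbers pair extracts. With the replicate number as a block, the ratio difference had 0 members called, and the levels 1 (polysomal) and 0 (sub-polysomal) (Suclg1 adjusted p = 0.0586, Mdh1 ratio 0.0606). Of all genes, 2.09%, 13.6% and 11.8% were then called, in that order.

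Signs changed as follows (log2), in genes not called unless the report says so. Without normalisation within arrays by loess, all genes shift: the median difference of the ratio was -0.77 under median centring, -0.77 without normalisation and -1.14 with the authors' ratios. In that order, the Cs ratio in WT became 1.11, 1.40 and 1.70, Idh3g 0.42, 0.70 and 1.12, and Mpc1 0.67, 0.96 and 1.38, while the ratio difference became -0.61, -0.61 and -0.87 for Cs. Pdhx in Lck-/- became 0.24 without normalisation and 0.29 with the authors' ratios, and Ogdh in Lck-/- -0.018 with these centred. Under median centring and without normalisation, the polysomal difference of Ogdh was -0.25 and -0.30, and the sub-polysomal differences were 0.22 and 0.18 (Idh3a), 0.55 and 0.41 (Mdh2) and 0.089 and 0.058 (Slc25a1). Agilent's processed signals gave Cs in WT 0.087 and Mdh2 sub-polysomal 0.29. On slide 1 alone Cs in WT was 0.013, the ratio differences of Idh3a and Suclg1 were 0.13 and 0.11, Ogdh polysomal was -0.061, and sub-polysomal differences were -0.30 (Cs), -0.048 (Fh1) and 0.0071 (Mdh2). On slide 2 alone Ogdh in WT was -0.23, the ratio differences of Ogdh and Lck were 0.35 and 0.11, and Idh3a sub-polysomal was 0.089. The mean of all probes gave Fh1 sub-polysomal -0.30. Without WT replicates 1 and 2 Cs sub-polysomal was -0.32. Without the dye-swap array of WT replicate 1, Cs in WT was 0.016, Mdh2 polysomal 0.012, and the sub-polysomal differences were -0.25 (Cs), -0.012 (Fh1) and 0.022 (Mdh2). Without 1 extract at a time, Cs in WT ran from -0.062 to 0.055, Ogdh in Lck-/- from -0.046 to 0.19, the Mdh2 ratio difference from -0.058 to 0.02, Mdh2 polysomal from -0.11 to 0.083 and sub-polysomal from -0.10 to 0.12, Cs sub-polysomal from -0.28 to 0.47, and Fh1 sub-polysomal from -0.090 to 0.11. The 4 extracts per genotype, and signal near background for Idh1, limit what could be detected.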
